A study of Ulva lactuca with 4 samples.

Results

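The last interval of a desiccation course in Ulva lactuca, a leafy green alga of rocky shores, was examined by setting a library of thalli desiccated for 72 h against a library of thalli desiccated for 36 h. Both were held at 20% moisture. The same study has a library of thalli desiccated for 24 h, also at 20% moisture, and a control library of thalli that were kept submerged. The labels give 1 library per condition, name whole thalli as the tissue, and do not say whether thalli were pooled or when the control was taken. RNA was sequenced and reads were counted on the contigs of a de novo assembly. All 105451 contigs of the assembly table were considered. The comparison took the 43703 of them (41.4%) that reached 50 scaled counts at 72 h or at 36 h, where a scaled count is the read count divided by a median-of-ratios size factor computed over the 4 libraries. They held 99.1% of the reads at 72 h and 99.4% at 36 h.

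Seaweeds of the upper shore lose most of their free water at low tide and must keep membranes, proteins and photosystems intact until the water returns. Green algae and plants are known to accumulate protective proteins and solutes, to scavenge reactive oxygen species and to lower photosynthesis as they dry, and part of the response is made at the level of transcripts. Which of these processes the contigs below belong to is not known from the files, because they pair contigs with identifiers of the assembly and with no gene name, protein description or sequence. Identifiers have the form c, g and i: contigs that share the c and g numbers form a cluster, which can stand for 1 gene in several pieces or variants.

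The libraries held 53279365 reads on contigs at 72 h (size factor 0.89) and 71024673 at 36 h (size factor 1.15). The less deeply sequenced library nevertheless had reads on more contigs, 98649 at 72 h against 87806 at 36 h. Brought to the read number of the 72 h library by calculation, the 36 h library would have reads on 85716 contigs. There were 16012 contigs with a read at 72 h and none at 36 h, and 5169 with a read at 36 h and none at 72 h. Because there was no replicate, no difference could be set against a spread between thalli, no p-value was computed, and each difference is one between libraries. Intervals are exact Clopper-Pearson 95% intervals and cover counting error only. Scaled counts are relative levels in bulk tissue, so fewer cells that carry a transcript and less of it per cell cannot be told apart.

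Most contigs had a like level in both libraries. The log2 ratio of 72 h to 36 h, with 1 added to each scaled count, had a median of 0.0075 and quartiles of -0.45 and 0.73, and 31772 contigs (72.7%) lay within 2-fold. The distribution was lopsided beyond that: its 95th percentile was 4.86 and its 5th percentile -1.17. At least 4-fold higher at 72 h were 5128 contigs, 11.7% of those compared, and at least 4-fold lower were 517, 1.18%. Either way 12.9% differed, and 90.8% of those were higher at 72 h.

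**Figure D1:**
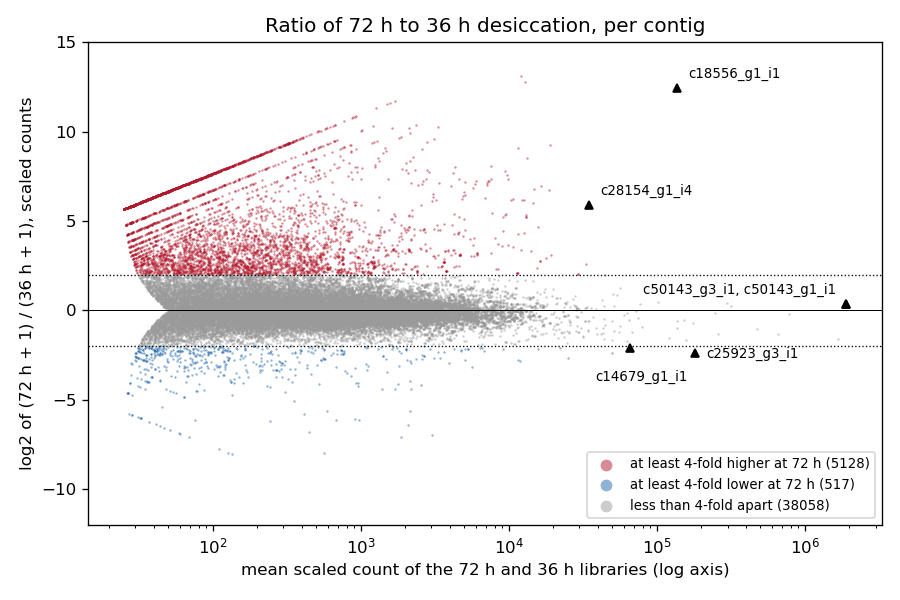
Log2 ratio of scaled counts (72 h + 1) to (36 h + 1) for each of the 43703 contigs against its mean scaled count in the 2 libraries, on a log axis. Red points are the 5128 contigs at least 4-fold higher at 72 h, blue points the 517 at least 4-fold lower, dotted lines mark 4-fold, and black triangles mark the 6 contigs named in the text. The straight red bands at low level are contigs with 0 or a few reads at 36 h.

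The differences in the higher and lower direction were unlike in size. Of the higher contigs, 1463 (28.5%) were at least 64-fold higher, while 24 of the lower contigs (4.64%) were at least 64-fold lower. The lower contigs lay mostly near the threshold, with 334 of them (64.6%) between 4-fold and 8-fold, against 1495 (29.2%) of the higher contigs. The median log2 ratio was 4.21 among the higher contigs and -2.66 among the lower ones. With nothing added and with 3 reads put in place of 0, these medians were 4.30 and -2.72. The size of the greatest folds rests on few reads: 1110 of the 1463 contigs past 64-fold had 0 reads at 36 h.

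**Figure D2:**
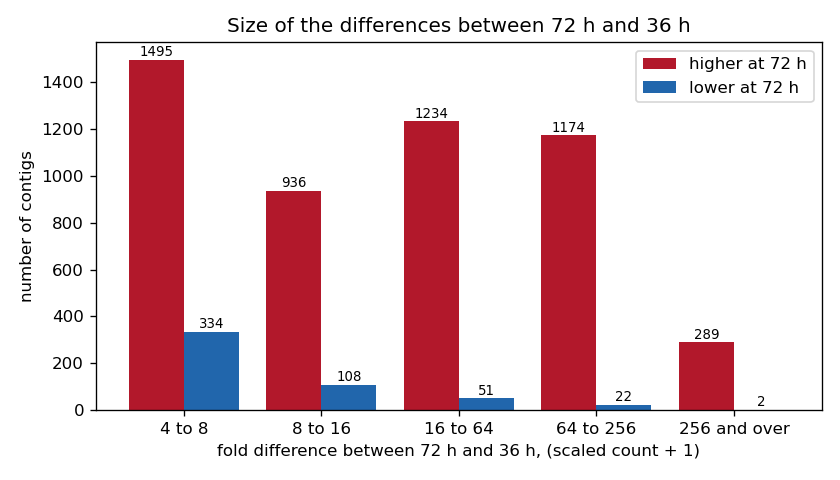
Number of contigs (vertical axis) in each class of fold difference between 72 h and 36 h (horizontal axis), computed on scaled counts with 1 added. Red bars count contigs higher at 72 h and blue bars contigs lower at 72 h. The bars fall quickly with fold among lower contigs, from 334 to 2, and lie between 936 and 1495 up to 256-fold among higher contigs.

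How many reads the weaker library held shows what kind of difference each was. Of the 5128 higher contigs, 1416 (27.6%) had 0 reads at 36 h, 547 had 1 to 3 reads and 524 had 4 to 9. Another 1432 had 10 to 49 reads at 36 h, 1149 had 50 or more but under 1000, and 60 had 1000 or more. Of the 517 lower contigs, 18 (3.48%) had 0 reads at 72 h, and 254 (49.1%) had 10 to 49. A fold on a contig with 0 reads at 36 h is a difference from a level that could not be measured at this depth, and not a measured change in level.

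The count minimum itself adds to these numbers, because a contig that meets it in 1 library alone is lower in the other by construction. It was met at 72 h alone by 5647 contigs, of which 4032 (71.4%) were at least 4-fold higher at 72 h. It was met at 36 h alone by 1865 contigs, of which 364 (19.5%) were at least 4-fold lower at 72 h. Among the 36191 contigs with 50 scaled counts in both libraries, 1096 (3.03%) were at least 4-fold higher at 72 h and 153 (0.423%) lower. At the edge of the minimum, 233 of 806 contigs whose larger scaled count was 50 to 55 were higher and 32 lower. Of the 913 contigs just under it, at 45 to 50, 243 would have been higher and 44 lower.

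The control and 24 h libraries, which took no part in the comparison of 72 h with 36 h, were used to sort contigs by level. Of the 1642 contigs with a mean under 1 scaled count in these 2 libraries, 98.1% were at least 4-fold higher at 72 h and 0.853% lower. Such contigs could enter only through many reads at 36 h or 72 h, so the choice places 36 h or 72 h above the control and 24 h. The choice does not fix that 72 h differs from 36 h, because a contig can meet the count minimum in both. A contig that meets it in 1 alone is lower in the other by construction, so the choice favours a difference. The 98.1% is thus in part made by the choice, which does not set the library that is higher. Of these contigs, 0.67% lay within 2-fold between 72 h and 36 h. From 1 to 10 scaled counts, 68.1% of 967 contigs were higher and 6.1% lower. From 10 to 100 scaled counts, 26.5% of 7068 contigs were higher and 2.7% lower. From 100 to 1000, 3.88% of 21406 were higher and 0.86% lower. From 1000 to 10000, 1.22% of 12131 were higher, 0.42% were lower and 90.2% lay within 2-fold. Of the 489 contigs of 10000 scaled counts or more, 0.818% were higher and 3.68% lower at 72 h, with a median log2 ratio of -0.40. By level in the control and 24 h, the excess of higher contigs was thus found in each class below 10000 scaled counts and not in the most abundant one, under each scaling tried. The balance of that class depends on how level is taken: by the mean of the 72 h and 36 h libraries, 7.14% of 518 contigs of 10000 or more were higher and 1.54% lower. Choosing contigs by the compared libraries favours those that are high in either. Why the balance differs between these ways of taking level was not tested. By level in the control and 24 h, the gap below 10000 was narrowest with the upper quartile, which gave 1.03% higher and 0.862% lower from 1000 to 10000.

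**Figure D3:**
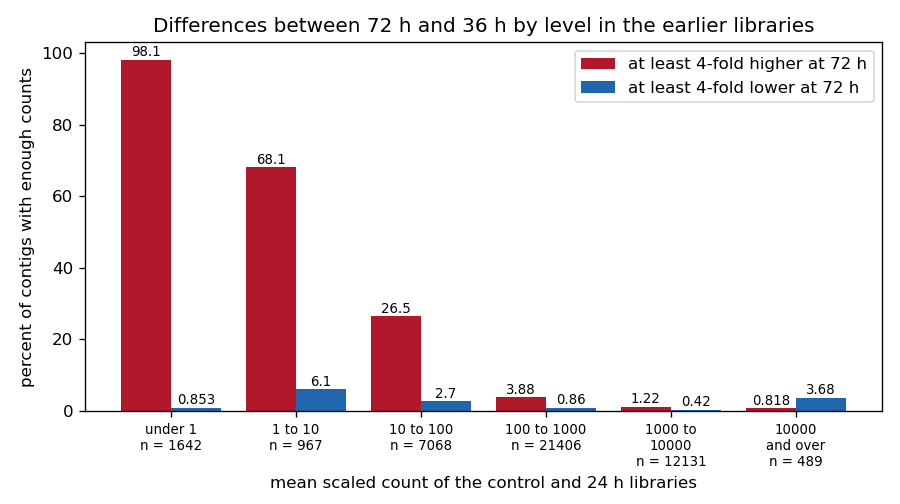
Percent of the compared contigs that were at least 4-fold higher (red) or lower (blue) at 72 h than at 36 h (vertical axis), in classes of mean scaled count of the control and 24 h libraries (horizontal axis, number of contigs under each class). The red share goes down with level, to 0.818% in the most abundant class, where the blue share is 3.68%. The count minimum adds to the red share in the low classes.

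Measured in reads, the differing contigs were a modest part of each library. The higher contigs took 7.54% of the reads at 72 h and 0.561% of those at 36 h. They had taken 1.55% in the control and 0.739% at 24 h. The lower contigs took 0.318% of the reads at 72 h and 1.69% of those at 36 h, beside 1.61% in the control and 1.06% at 24 h. A small part of the higher contigs carried much of the gain: 120 of the 5128 higher contigs made up 50% of their summed gain in scaled counts. Read use was also more even at 72 h, where 2493 contigs held 50% of the reads and the 10 most abundant held 13.6%. At 36 h, 2012 contigs held 50% and the 10 most abundant 15.3%.

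Contigs are named here by the amount of change in scaled counts, at most 2 in each direction, since their identifiers carry no function. The largest gain was that of c18556_g1_i1, the lone contig of its cluster that was compared. It had 5 reads in the control, 67 at 24 h, 55 at 36 h and 241745 at 72 h. It thus stayed under 100 reads in 3 libraries and took 0.454% of all reads in the last. The ratio of 72 h to 36 h was 5659 (95% interval 4347 to 7512).

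The second largest gain was that of c28154_g1_i4, with 1077 reads in the control, 1518 at 24 h, 1303 at 36 h and 60664 at 72 h. Its ratio was 59.9 (56.7 to 63.4). Unlike the first, this contig was well covered in each of the earlier libraries, whose levels lay close together. Its cluster had 6 contigs with enough counts, and 6 of them were higher at 72 h. Together they held 176636 reads at 72 h and 2845 at 36 h. Together c18556_g1_i1 and c28154_g1_i4 made up 8.12% of the summed gain.

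On the other side, c25923_g3_i1 lost the most. It had 182621 reads in the control, 252717 at 24 h, 346124 at 36 h and 51933 at 72 h, so that its level was highest at 36 h and lowest at 72 h. It was 5.18-fold lower at 72 h (5.13 to 5.22). The contig c14679_g1_i1 had 15999 reads in the control, 138337 at 24 h, 122561 at 36 h and 22082 at 72 h. It was 4.31-fold lower at 72 h (4.25 to 4.37). Its scaled count at 72 h was 24811, near the 18084 of the control, while 24 h and 36 h stood at 122875 and 106965. These 2 contigs made up 38.1% of the summed loss. Of the 517 lower contigs, 4 made up 50% of the loss. For 50% of the gain, 120 of the 5128 higher contigs were needed, so the loss was more concentrated than the gain.

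The most abundant contigs within 2-fold were c50143_g3_i1 and c50143_g1_i1. The first had 2106547 reads in the control, 1992037 at 24 h, 1910228 at 36 h and 1886160 at 72 h. The counts of c50143_g1_i1 were nearly equal to these, with 1886120 reads at 72 h and 1910211 at 36 h. Each had a ratio of 1.27 (1.27 to 1.27). The sources used here do not say how reads that fit several contigs were counted, so the counts of such a pair may be of the same reads. Among the compared contigs, 3959 (9.06%) had a partner with the same c number whose counts lay within 1% or 1 read in each library, for contigs with 100 reads or more in a library. They included 94 of the higher contigs (1.83%) and 7 of the lower ones (1.35%), smaller shares than the 9.06% of all compared contigs.

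The levels of the differing contigs in the 4 libraries show where each stood before the last interval. The higher contigs had a median of 11.3 scaled counts in the control, 11.5 at 24 h, 8.73 at 36 h and 181 at 72 h. The medians of the first 3 libraries thus lay close together at a low level, which does not hold contig by contig, as the shares for 24 h against the control show. The lower contigs had a median of 81.4 scaled counts in the control, 59.5 at 24 h, 161 at 36 h and 22.5 at 72 h. Here the 36 h library, not the 72 h library alone, stood apart from the control and 24 h. Choosing contigs for a low 36 h value or a high one moves the 36 h median away from the other libraries by itself.

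**Figure D4:**
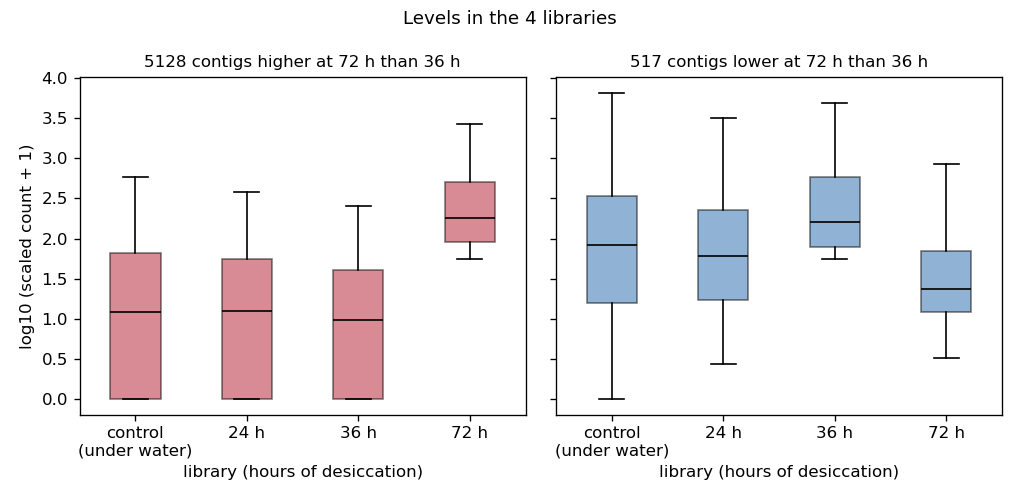
Scaled counts of the 5128 contigs higher at 72 h than at 36 h (left) and the 517 lower (right) in the control, 24 h, 36 h and 72 h libraries, as log10 of the scaled count with 1 added. Boxes span the quartiles, lines are medians and whiskers reach the 5th and 95th percentiles of contigs. On the left the medians are 11.3, 11.5, 8.73 and 181 scaled counts, and on the right 81.4, 59.5, 161 and 22.5.

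Among the 5128 higher contigs, several histories could be told apart. The largest set of like history was that of 1660 contigs (32.4%) with at most 3 reads in each of the other libraries. Such contigs could meet the count minimum only at 72 h, so that being higher there follows from the choice. No like set was formed for the lower contigs. The 1660 contigs had a median of 103 scaled counts at 72 h and took 0.56% of its reads. A set of 932 contigs (18.2%) was measurable earlier and steady, with the control and 24 h within 2-fold of the 36 h level. Its medians were 35.0 scaled counts in the control, 34.6 at 24 h, 37.5 at 36 h and 360 at 72 h, and it took 2.12% of the reads at 72 h against 0.192% at 36 h. In 78 contigs (1.52%) the control and 24 h lay within 2-fold of the 72 h level, so that 36 h alone was low. Their medians were 123 scaled counts in the control, 95.9 at 24 h, 21.4 at 36 h and 116 at 72 h.

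A further 204 higher contigs had the control near the 72 h level and 24 h near the 36 h level, and 109 had 24 h near 72 h and the control near 36 h. The other 2145 (41.8%) fell in none of these sets. Among the 517 lower contigs, 90 (17.4%) had the control and 24 h within 2-fold of 36 h, with medians of 109 scaled counts in the control, 125 at 24 h, 134 at 36 h and 17.4 at 72 h. In 49 (9.48%) the control and 24 h lay within 2-fold of 72 h, so that 36 h alone was high. Those had medians of 14.7 scaled counts in the control, 16 at 24 h, 89.0 at 36 h and 13.5 at 72 h. A further 32 had the control near 72 h and 24 h near 36 h, and 40 had 24 h near 72 h and the control near 36 h. The other 306 lower contigs (59.2%) fell in none of these sets. For none of these histories was the share over all compared contigs taken. Whether a history is more or less common among differing contigs was thus not tested.

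The first step of the course, 24 h against the control, shares no library with the last one, so values of both steps can be set side by side for each contig. Of all 41478 contigs with 50 scaled counts at 24 h or in the control, 8.66% were at least 4-fold higher at 24 h than in the control and 7.9% lower. Of the 38610 among them that also had enough counts at 72 h or 36 h, 7.77% were at least 4-fold higher at 24 h than in the control and 6.55% at least 4-fold lower. Among the 1826 of them that were higher at 72 h than at 36 h, 280 (15.3%) were at least 4-fold higher at 24 h than in the control and 392 (21.5%) lower. Among the 360 that were lower at 72 h than at 36 h, 60 (16.7%) were higher at 24 h and 90 (25%) lower. Within 2-fold between 24 h and the control were 63.3% of the 38610, 40.1% of the 1826 and 38.6% of the 360. The other 3302 higher contigs had too few reads at 24 h and in the control to be placed. Over the 38610 contigs, Pearson's r between the log2 ratios of the steps was -0.03, a description across contigs that are not independent.

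Among abundant contigs that differed between 72 h and 36 h, 4-fold differences in the first step lay mostly on the lower side. With a mean of at least 1000 scaled counts in the control and 24 h libraries, 62 of 152 contigs higher at 72 h (40.8%) and 30 of 69 contigs lower at 72 h (43.5%) were at least 4-fold lower at 24 h than in the control, against 5.93% of all 12620 such contigs. At least 4-fold higher at 24 h than in the control were 9.21% of the 152, 18.8% of the 69 and 6.46% of the 12620. The 62 had medians of 4051 scaled counts in the control, 159 at 24 h, 365 at 36 h and 3892 at 72 h. The choice of these contigs fixes that 24 h lies below the control and 36 h below 72 h, and most of them reach 1000 through the control. It does not fix how 72 h compares with the control, but it favours high values in both. Those medians lay close together, while the quartiles were 739 and 12979 at 72 h and 2293 and 6115 in the control. The 30 had medians of 5554 scaled counts in the control, 67.1 at 24 h, 1104 at 36 h and 225 at 72 h. Here the choice fixes that 24 h lies below the control and 72 h below 36 h. It does not fix how 36 h compares with 24 h, but it takes low values at 24 h and high ones at 36 h. The higher median at 36 h is thus favoured by the choice. No test stands behind these shares, since each condition has 1 library.

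**Figure D5:**
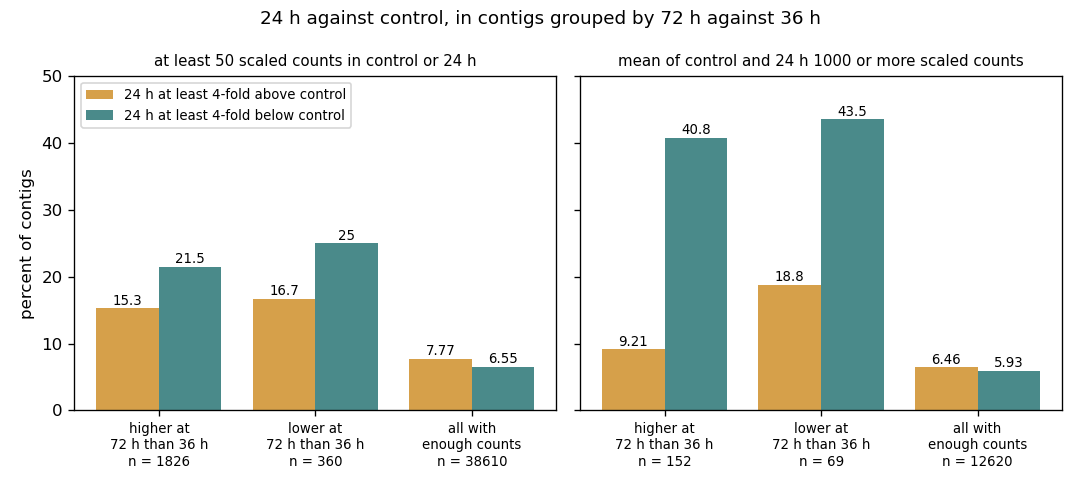
Percent of contigs (vertical axis) at least 4-fold above (ochre) or below (teal) the control at 24 h, in contigs higher at 72 h than at 36 h, contigs lower at 72 h and all compared contigs (horizontal axis, with their number). The left panel asks for 50 scaled counts at 24 h or in the control and the right panel for a mean of 1000 or more. In the right panel the teal bars reach 40.8% and 43.5% in the differing contigs and 5.93% in all.

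The compared contigs lay in 14441 clusters, of which 8176 held 2 or more of these contigs. A higher contig was present in 2921 clusters and a lower one in 358. Of the 1169 clusters with several compared contigs and at least 1 higher, all of the compared contigs were higher in 873 (74.7%). Of the 124 such clusters with a lower contig, all were lower in 62. Contigs of a cluster can share reads, so this is not a repeat of the measurement. Contigs under the count minimum are also left out of these shares. Of the 5128 higher contigs, 4032 met the minimum at 72 h alone, and of the 517 lower ones 364 met it at 36 h alone. Both shares are thus partly made by the minimum, and whether they exceed what it gives was not tested. Clusters with both a higher and a lower contig numbered 3, and were c23398_g1, c26566_g1 and c27744_g1, named because they are so few.

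The authors' deposited table of this pair gives an adjusted p-value for 103818 of the contigs, computed from 1 library a side. The spread behind these values was thus measured by no replicates. In the authors' deposited table, 1008 of 103818 contigs were higher at 72 h with an adjusted p-value under 0.05 (0.971%), and 35 were lower (0.0337%). The least fold among those calls was 7.49 for higher contigs, and the least read number at 72 h was 152. Of the 5128 contigs past the 4-fold rule, 19.7% were called higher in the authors' deposited table, and of the 517 lower ones 6.77%. By mean scaled count of the 72 h and 36 h libraries, the authors' deposited table called 2.75% of the 2614 higher contigs from 10 to 100, 32.0% of the 2138 from 100 to 1000, 66.1% of the 339 from 1000 to 10000, and 73.0% of the 37 above that. For the lower contigs in the same classes, the authors' deposited table called 0% of 265, 10.2% of 186, 27.6% of 58 and 0% of 8. The authors' deposited table called 347 of the 1416 higher contigs with 0 reads at 36 h.

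For the named contigs, the authors' deposited table gave c18556_g1_i1 a fold of 5694 with an adjusted p-value of 2.57e-08. In the authors' deposited table c28154_g1_i4 had a fold of 60.3 and an adjusted p-value of 6.24e-06. Both contigs with the largest losses went uncalled by the adjusted p-value, which in the authors' deposited table was 1 for c25923_g3_i1 and 0.905 for c14679_g1_i1. The status column of the authors' deposited table nevertheless lists c14679_g1_i1 as lower at 72 h. That column of the authors' deposited table lists 2828 contigs as higher (2.68%) and 299 as lower (0.284%).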

How the data were processed

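Total RNA of Ulva lactuca thalli was sequenced in 4 libraries, and 5 tables of library pairs over the same contigs were used. Per the labels, libraries were made with a TruSeq-type kit. Per the submitters' processing notes, the tools included cutadapt, Bowtie2 and DESeq. Their settings were not given in the sources used here. Read counts per contig were deposited by the authors without normalization, and 6 of 6 repeated count columns were identical between tables. The authors' scaled values (a signal on the scale of counts), fold changes (a linear ratio), p-values and adjusted p-values are deposited beside them, per the file headers. Every column of per-sample values belongs to a library of the study.

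Counts were divided by median-of-ratios size factors of the 4 libraries, and ratios took 1 added to each scaled count. Depth was 52643595 to 74243310 reads per library. With 1 library per condition a rule of size (4-fold, 50 scaled counts in 1 of the 2 libraries) replaced a test. The rule was also run on simulated counts with known folds on well-covered contigs. Those counts held counting error and no spread between thalli, so the run cannot show how often the rule errs in these libraries. Contigs named were the 2 with the largest gain and the 2 with the largest loss in scaled counts past the rule, and the 2 most abundant within 2-fold. The contigs, rules and classes were chosen with earlier results of these data known. Alternatives were filters of 10, 200 or no scaled counts, pseudocounts of 0.5 and 5, library totals, upper quartile, TMM from edgeR 4.0.16, size factors of the 2 libraries, cluster sums, other thresholds, and the removal of contigs read at 72 h alone. Python 3.11.15, pandas 2.3.3, numpy 2.4.6, scipy 1.17.1 and R 4.3.3 were used.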

Additional observations from a re-analysis of the deposited data

How the results depend on the processing

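Contigs higher at 72 h outnumbered lower ones under each alternative run, with 73.6% (2-fold) to 95.2% (8-fold) of the differing contigs higher, and between 84.4% and 91.6% under the scalings. The number higher, 5128 as reported, was 13835 with a filter of 10 scaled counts, 2391 with 200, 20693 with none, 2971 for cluster sums and 8782 at 2-fold. Filters chosen after seeing the data gave 2018 higher (50 scaled counts in the control or 24 h in place of the compared libraries, with 511 lower) and 1096 higher (50 in both compared libraries). The number lower, 517 as reported, was 1712, 230 and 4010 with the filters of 10, 200 and none, 793 with the upper quartile, 330 for cluster sums, 3149 at 2-fold, 183 at 8-fold, 302 where the near bound of the counting interval had to pass 4-fold, and 153 with 50 in both libraries. Without contigs read at 72 h alone, 3468 were higher.

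The share of 72 h reads on higher contigs, 7.54% as reported, was 7.84%, 7.08% and 7.91% with filters of 10, 200 and none, 7.55% and 7.49% with pseudocounts of 0.5 and 5, 7.79% with library totals, 6.80% with the upper quartile, 7.34% with TMM, 7.57% with size factors of the 2 libraries and 7.51% for cluster sums. It was 6.98% without contigs read at 72 h alone, 14.6% at 2-fold, 5.54% at 8-fold and 7.20% by the interval's near bound. Chosen after seeing the data, it was 7.25% with near-identical contigs counted once, 5.91% and 5.17% with the other filters and 7.09% without c18556_g1_i1.

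The median log2 ratio of the compared contigs, 0.0075 as reported, was 0.14, -0.048 and 0.18 with the filters of 10, 200 and none, 0.0632 with library totals, -0.29 with the upper quartile, -0.0333 with TMM, 0.0177 with size factors of the 2 libraries, 0.17 for cluster sums, -0.0265 without contigs read at 72 h alone, 0.0211 with near-identical contigs counted once, -0.0664 with 50 scaled counts in the control or 24 h and -0.0726 with 50 in both. The sign of this median therefore depends on the setting. The upper quartile lowers each ratio of scaled counts by the same factor before 1 is added, and by less after that where counts are low. In the authors' deposited table the status column held 3127 calls, against 1043 by the adjusted p-value. No paired analysis was possible because each condition has 1 library, and for the same reason no replicate could be left out. With the near bound of the counting interval past 4-fold, 4369 contigs were higher of the 5128.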
